A study of Mus musculus with 8 samples.

Results

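The genes of fatty acid handling described here are 48 genes for the uptake, activation, storage and mitochondrial beta-oxidation of fatty acids and for the use of ketone bodies. They were taken from the count tables by gene symbol, as a list given by name. All 48 had a row among the 22880 genes counted in each mouse, and all 48 passed the filter on low counts.

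RNA was sequenced from the soleus, a postural calf muscle rich in slow and oxidative fibres. It came from 4 control mice (Dnm2 +/+) and 4 heterozygous mice with the Dnm2 +/K562E genotype. All were male, 2 months old and on a C57BL/6 background, given with the substrain J in the methods. The mutant mice carried a point mutation of dynamin 2, a large GTPase that cuts membranes, made by homologous recombination at the endogenous gene. It was therefore present in every cell, and a LoxP site remained in an intron of that allele. The question was how fatty acid genes differed between the genotypes, and whether uptake, droplet and oxidation genes differed alike.

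Fatty acids reach a muscle fibre from circulating lipoproteins, which are cleaved at the capillary wall, and from albumin. Inside the fibre they are bound to coenzyme A, and then either esterified and stored as triglyceride in lipid droplets or passed into mitochondria as acylcarnitines. In the matrix they are shortened step by step to acetyl-CoA, with electrons handed to the respiratory chain. Slow and oxidative fibres depend on this route more than fast glycolytic fibres do.

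Levels are normalized CPM, in which each count is divided by the size of its library and by its TMM factor. A log2 fold change is the Dnm2 +/K562E level over the control level, with its standard error (SE). Adjusted p-values come from the quasi-likelihood test of edgeR and were corrected across all 14001 genes that were tested, by the Benjamini-Hochberg method. Both thresholds were passed where the adjusted p was under 0.05 and the gene was higher or lower by 0.58 or more on the log2 scale.

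Fatty acid genes were mostly lower in Dnm2 +/K562E soleus. With both thresholds 25 of the 48 were lower and none was higher, while over all tested genes 7.85% were lower and 12.9% were higher. By adjusted p alone 39 were lower, against 21.7% of all tested genes, and 1 was higher, against 22.2%. That gene was Cpt1a, the carnitine palmitoyltransferase isoform of liver and many other tissues. In 36 of the 48 every mutant mouse lay below every control, which held for 20.5% of all tested genes, and in none of the 48 did every mutant mouse lie above every control, which held for 20.6%. The median log2 fold change was -0.59, beside 0.01 over all tested genes. The 8 genes that did not pass the test were Slc27a4, Acsl3, Acsl4, Acsl5, Acsl6, Acaca, Plin2 and Dgat1.

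Per mouse, the 48 genes together took 1.63%, 1.48%, 1.43% and 1.34% of all counts in controls 1 to 4 and 1.00%, 1.04%, 1.01% and 0.982% in Dnm2 +/K562E mice 1 to 4. The groups did not overlap, and the mutant mice were closer to each other than the controls were. These shares do not depend on the TMM factors, which were 0.915 to 0.959 in controls and 1.04 to 1.10 in Dnm2 +/K562E mice. Depth was 33407430 to 48832814 counts per mouse.

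The muscle label was checked with marker genes. The fibre genes Acta1, the skeletal actin, and Ckm, the muscle creatine kinase, averaged 24358 and 9375 normalized CPM in controls. Myh7, the slow myosin heavy chain, averaged 6014, while Ucp1, the defining gene of brown adipocytes, had no count in any mouse and the atrial gene Nppa had none in any control. The summed level of 8 mature myofibre markers was 59708 to 66388 in controls and 43383 to 49215 in Dnm2 +/K562E mice. By adjusted p 6 of 8 were lower, against 21.7% of all tested genes, and 1, the desmin gene Des, was higher, against 22.2%. In bulk tissue, fewer fibres and less RNA of a gene per fibre cannot be told apart. Scaled to these markers instead of TMM factors, a choice made after seeing the data, 10 of the 48 genes were lower with both thresholds. Cpt1a alone was higher, and the median of all tested genes moved to 0.41. The median of the 48 genes minus that of all tested genes was -0.60 with this scaling and -0.60 with TMM factors. The share of all tested genes lower or higher with this scaling was not counted.

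**Figure D1:**
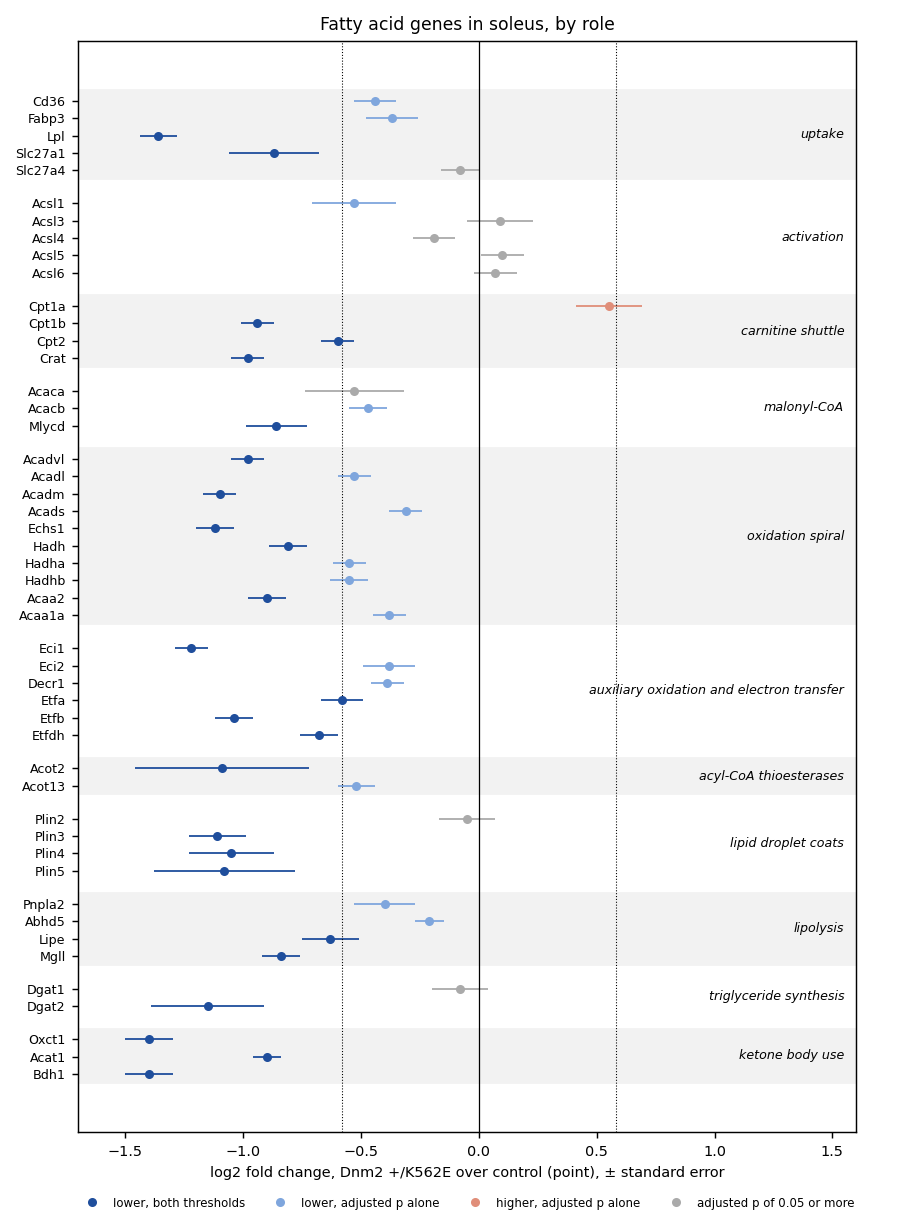
Log2 fold change of each of the 48 genes (horizontal axis, Dnm2 +/K562E over control, points with standard error, 4 mice a group), grouped by role on the vertical axis, with dotted lines at 0.58 in either direction. Of the 48 genes, 25 lie at or beyond the left line with an adjusted p under 0.05, and Cpt1a is the only gene with an adjusted p under 0.05 to the right of 0. Scaling by myofibre markers moves 10 genes left of 0 to its right.

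Uptake genes were divided. Lpl and Slc27a1 fell past both thresholds, Cd36 and Fabp3 fell by adjusted p alone, and Slc27a4 did not pass the test. Lpl, the lipoprotein lipase that frees fatty acids from circulating triglyceride, measured 1933, 2249, 2088 and 1871 normalized CPM in controls 1 to 4 and 806, 787, 705 and 874 in Dnm2 +/K562E mice 1 to 4. All mutant mice were far below the lowest control. Its log2 fold change was -1.36 (SE 0.08, adjusted p = 1.29e-06), which left 39.0% of the control level. Lpl (chromosome 8, 68880491 to 68907448, GRCm38) was the uptake gene with the largest difference.

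Slc27a1, the fatty acid transport protein FATP1 of muscle and fat, was at 180, 115, 102 and 92.6 in controls and 54.1, 76.9, 75.6 and 61.5 in Dnm2 +/K562E mice. The groups did not overlap, and control 1 stood above the other controls. Slc27a1 thus had a log2 fold change of -0.87 (SE 0.19, adjusted p = 0.00421), and -0.63 without control 1.

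Fabp3, the heart and muscle fatty acid binding protein, had the highest level per kb of transcript of the 48 genes. It measured 2011, 1668, 1595 and 1318 in controls and 1322, 1189, 1292 and 1313 in Dnm2 +/K562E mice. Control 4 lay within the mutant range, so the groups overlapped. On the log2 scale Fabp3 differed by -0.37 (SE 0.11, adjusted p = 0.0197). It lost its call without Dnm2 +/K562E mouse 2 and with library size alone, and was 0.04 when scaled to myofibre markers. Of the 31-base stretches of Fabp3, 35.2% also occur in the counted pseudogene Fabp3-ps1, so reads may have been split between them.

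Cd36, the fatty acid translocase of the plasma membrane, ran between 965 and 1341 in controls and between 772 and 863 in Dnm2 +/K562E mice, without overlap and with a log2 fold change of -0.44 (SE 0.09, adjusted p = 0.00310). Slc27a4, the transport protein FATP4, was the lowest uptake gene, with a control mean of 19.5 ± 0.871 and a mutant mean of 18.5 ± 1.85 (SD, n = 4 each) and a log2 fold change of -0.08. Capillary endothelium also carries Cd36 and holds the lipoprotein lipase protein at its surface. The 10 endothelial markers summed to 1367 to 1461 in controls and 932 to 1087 in Dnm2 +/K562E mice. By adjusted p 8 of them, among them Kdr and Pecam1, were lower, against 21.7% of all tested genes. The part of endothelial cells in the lower Cd36 counts was not tested, nor that of any cell type in the lower Lpl counts. Gpihbp1, the endothelial anchor of lipoprotein lipase, fell from 98.0 ± 10.6 to 58.6 ± 4.63 (SD, n = 4 each), a log2 fold change of -0.74.

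Of the 5 activation genes, the long-chain acyl-CoA synthetases that bind fatty acids to coenzyme A, 4 did not pass the test. Acsl1, the main muscle isoform, held most of the RNA of this group and was the only member to pass, by adjusted p alone. It measured 969, 620, 590 and 514 in controls and 398, 508, 533 and 424 in Dnm2 +/K562E mice. Control 1 was the highest and control 4 lay within the mutant range. The fitted difference of Acsl1 was -0.53 on the log2 scale (SE 0.18, adjusted p = 0.0311), and -0.31 without control 1. The call of Acsl1 was lost with library size alone or scaled to myofibre markers, with the replicate block by title numbers, without Dnm2 +/K562E mouse 1 and without Dnm2 +/K562E mouse 4. Acsl3, Acsl4, Acsl5 and Acsl6 had log2 fold changes of 0.09, -0.19, 0.10 and 0.07, with means between 13.8 and 25.0 in controls. Acsl4 turned to 0.02 with library size alone. With library size alone Acsl5 and Acsl6 passed the test as higher.

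The carnitine shuttle carries acyl groups into mitochondria. Its outer enzyme has a muscle isoform, Cpt1b, and a liver isoform, Cpt1a, which differed in opposite directions in these muscles. Cpt1b measured 557, 530, 521 and 465 in controls and 259, 279, 286 and 254 in Dnm2 +/K562E mice. The groups were far apart, and the level in Dnm2 +/K562E mice was 52.0% of control. For Cpt1b the fitted log2 fold change was -0.94 (SE 0.07, adjusted p = 3.38e-06). Of its 31-base stretches 79.7% are shared with Gm44502, a transcript annotated in GENCODE but not among the counted genes.

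Cpt1a measured 40.3, 28.6, 31.8 and 28.4 in controls and 46.0, 53.9, 52.3 and 36.2 in Dnm2 +/K562E mice. Control 1 exceeded Dnm2 +/K562E mouse 4, so the groups overlapped by this pair of mice. The Cpt1a log2 fold change came to 0.55 (SE 0.14, adjusted p = 0.00925), just under the fold threshold. It passed the threshold without control 1, without Dnm2 +/K562E mouse 4, with library size alone and when scaled to myofibre markers. Non-muscle cells also express Cpt1a. Macrophage markers summed to 207 to 384 in controls and 480 to 785 in Dnm2 +/K562E mice. With both thresholds 10 of 10 were higher, among them Cd68 and Csf1r, against 12.9% of all tested genes. Fibro-adipogenic progenitor markers summed to 1252 to 1736 and 2262 to 2824, with 6 of 8, among them Pdgfra, higher with both thresholds. The part of these cells in the Cpt1a counts was not tested.

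Cpt2, the inner carnitine palmitoyltransferase, was at 140, 124, 124 and 113 in controls and 83.0, 84.2, 82.4 and 81.0 in Dnm2 +/K562E mice. The mutant mice lay within a narrow range below all controls. Its log2 fold change of -0.60 (SE 0.07, adjusted p = 5.54e-05) was just past the fold threshold. Cpt2 fell short of that threshold with upper-quartile factors, with library size alone and without control 1. Scaled to myofibre markers, it lost its call by adjusted p as well.

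Crat, the carnitine acetyltransferase that buffers acetyl-CoA, measured 676, 653, 655 and 612 in controls and 303, 343, 363 and 310 in Dnm2 +/K562E mice. No mutant mouse came near a control. Crat thus had a log2 fold change of -0.98 (SE 0.07, adjusted p = 2.79e-06).

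Malonyl-CoA inhibits the outer carnitine enzyme. Mlycd, the decarboxylase that removes malonyl-CoA, fell past both thresholds, and Acacb, the acetyl-CoA carboxylase associated with mitochondria, fell by adjusted p alone. Mlycd measured 183, 138, 154 and 113 in controls and 69.9, 86.8, 87.5 and 80.5 in Dnm2 +/K562E mice. All mutant mice lay below all controls, and control 1 was the highest. On the log2 scale Mlycd differed by -0.86 (SE 0.13, adjusted p = 3.74e-04). Acacb ran between 304 and 385 in controls and between 229 and 251 in Dnm2 +/K562E mice, and its log2 fold change was -0.47.

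Acaca, the cytosolic acetyl-CoA carboxylase of lipid synthesis, varied widely among controls, at 39.4, 66.5, 48.8 and 82.6, and was at 51.4, 37.3, 34.8 and 40.8 in Dnm2 +/K562E mice. The groups overlapped and the log2 fold change of -0.53 did not pass (adjusted p = 0.0567), although it passed by the exact test of edgeR, by DESeq2, with no filter on low counts and without control 1, control 3 or Dnm2 +/K562E mouse 1. The Acaca difference ran between -0.69 and -0.34 when a mouse was left out. Adipocytes express this gene. The fat hormone gene Adipoq ran in the order of controls 4, 2, 1 and 3, at 66.6, 43.1, 24.4 and 11.3. Acaca was likewise highest in controls 4 and 2, but was lowest in control 1 and not in control 3. Fabp4, another adipocyte marker, was highest in control 1, at 578. The part of fat tissue in these values was not tested.

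Beta-oxidation enzymes proper were all lower. In this group 10 of 10 genes fell by adjusted p, against 21.7% of all tested genes, and 5 fell past both thresholds, against 7.85%. In all 10 every mutant mouse lay below every control, which held for 20.5% of all tested genes. Each of the 10 kept its call with library size alone except Acads and Acaa1a, and when scaled to myofibre markers those 2 turned slightly positive, at 0.09 and 0.02, and Acadl, Hadha and Hadhb lost their call. The acyl-CoA dehydrogenases open each round and differ in the chain length they prefer.

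Acadvl, the very long-chain dehydrogenase, measured 594, 578, 599 and 502 in controls and 279, 275, 300 and 296 in Dnm2 +/K562E mice. Its mutant level was 50.6% of control, and the groups were far apart. The fitted difference of Acadvl was -0.98 on the log2 scale (SE 0.07, adjusted p = 2.49e-06). Of its exon bases 42.9% are overlapped by Dvl2 on the other strand, and whether strand was used in counting was not stated.

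Acadm, the medium-chain dehydrogenase, measured 611, 570, 551 and 482 in controls and 257, 258, 265 and 255 in Dnm2 +/K562E mice. The mutant mice lay within a very narrow range. For Acadm the fitted log2 fold change was -1.10 (SE 0.07, adjusted p = 1.72e-06). Acadl and Acads, for long and short chains, had smaller log2 fold changes of -0.53 and -0.31 (SE 0.07 each).

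Echs1, the short-chain enoyl-CoA hydratase, was at 147, 163, 154 and 129 in controls and 61.9, 72.7, 68.9 and 69.0 in Dnm2 +/K562E mice. Its log2 fold change was -1.12 (SE 0.08, adjusted p = 2.58e-06), the largest of the group. Hadh, the hydroxyacyl-CoA dehydrogenase for shorter chains, was at 289, 300, 267 and 251 in controls and 142, 159, 156 and 173 in Dnm2 +/K562E mice. For both genes the highest mutant mouse was well below the lowest control, and the log2 fold change of Hadh was -0.81 (SE 0.08, adjusted p = 1.59e-05). Acaa2, the thiolase that closes the round in mitochondria, was at 383, 342, 348 and 302 in controls and 180, 183, 201 and 174 in Dnm2 +/K562E mice. It fell with a log2 fold change of -0.90 (SE 0.08, adjusted p = 9.80e-06), without overlap.

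Hadha and Hadhb encode the subunits of the mitochondrial trifunctional protein, which handles long chains. They lie head to head on chromosome 5, with RefSeq start sites 273 bases apart. Hadhb had the highest level per kb of the group and measured 779, 693, 699 and 602 in controls and 472, 448, 466 and 513 in Dnm2 +/K562E mice. Hadha measured 695, 623, 631 and 547 in controls and 430, 408, 443 and 427 in Dnm2 +/K562E mice. Across the controls both genes were highest in control 1 and lowest in control 4, and both were lower in every mutant mouse. Their log2 fold changes were equal at this precision, -0.55 each (SE 0.07 for Hadha and 0.08 for Hadhb), and thus short of the fold threshold. Acaa1a, the peroxisomal thiolase of the list, had a log2 fold change of -0.38, and 16.9% of its 31-base stretches are shared with the counted Acaa1b.

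Promoter windows were read from RefSeq on GRCm38.p6, from 250 bases before to 50 after each start site, for 39 of the 48 genes. Decr1, Lpl, Crat, Dgat2, Acot13, Dgat1, Acat1, Cpt1b and Acaa2 had no window. The windows of Hadha and Hadhb are shown because these genes differed by the same amount and 228 bases of their windows are the same stretch on opposite strands. Those of Acadm, Acadvl and Echs1 are shown as the oxidation genes that fell past both thresholds and hold the motif AGGTCA, and that of Cpt1a as the gene that rose. AGGTCA is the core motif of many nuclear receptors, such as the PPAR and ERR factors. Capitals mark AGGTCA or its reverse complement TGACCT, of which the Hadha and Hadhb windows hold none.
Hadha, chr5:30154931-30155230, minus strand: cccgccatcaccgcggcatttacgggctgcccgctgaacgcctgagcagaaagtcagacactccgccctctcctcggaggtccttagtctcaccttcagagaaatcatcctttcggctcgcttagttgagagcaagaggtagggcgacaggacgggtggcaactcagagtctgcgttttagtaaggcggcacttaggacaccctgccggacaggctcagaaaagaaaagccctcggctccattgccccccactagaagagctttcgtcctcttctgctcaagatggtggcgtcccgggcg
Hadhb, chr5:30155003-30155302, plus strand: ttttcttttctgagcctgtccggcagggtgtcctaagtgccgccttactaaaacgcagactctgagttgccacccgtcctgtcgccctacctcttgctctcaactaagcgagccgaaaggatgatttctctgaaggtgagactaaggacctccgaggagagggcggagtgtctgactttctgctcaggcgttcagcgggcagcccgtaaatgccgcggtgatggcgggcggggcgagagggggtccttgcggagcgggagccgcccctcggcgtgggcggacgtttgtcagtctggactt
Acadm, chr3:153944594-153944893, minus strand: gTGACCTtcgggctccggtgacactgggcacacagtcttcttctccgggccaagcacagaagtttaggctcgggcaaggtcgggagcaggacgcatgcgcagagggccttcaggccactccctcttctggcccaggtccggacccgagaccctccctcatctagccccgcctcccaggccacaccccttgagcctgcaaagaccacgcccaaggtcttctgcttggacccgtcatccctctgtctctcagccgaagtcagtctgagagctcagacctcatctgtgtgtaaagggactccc
Acadvl, chr11:70015379-70015678, minus strand: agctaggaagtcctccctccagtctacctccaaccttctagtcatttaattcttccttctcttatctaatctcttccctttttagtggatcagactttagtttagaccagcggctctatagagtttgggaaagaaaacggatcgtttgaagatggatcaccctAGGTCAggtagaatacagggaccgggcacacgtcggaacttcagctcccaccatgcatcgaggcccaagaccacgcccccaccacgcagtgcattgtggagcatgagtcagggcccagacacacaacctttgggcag
Echs1, chr7:140116372-140116671, minus strand: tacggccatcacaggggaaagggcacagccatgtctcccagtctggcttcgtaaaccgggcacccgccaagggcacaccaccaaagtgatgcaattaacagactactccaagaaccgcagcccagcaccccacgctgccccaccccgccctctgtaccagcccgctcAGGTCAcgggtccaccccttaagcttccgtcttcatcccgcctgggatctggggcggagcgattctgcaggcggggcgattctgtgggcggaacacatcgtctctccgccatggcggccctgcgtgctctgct
Cpt1a, chr19:3323051-3323350, plus strand: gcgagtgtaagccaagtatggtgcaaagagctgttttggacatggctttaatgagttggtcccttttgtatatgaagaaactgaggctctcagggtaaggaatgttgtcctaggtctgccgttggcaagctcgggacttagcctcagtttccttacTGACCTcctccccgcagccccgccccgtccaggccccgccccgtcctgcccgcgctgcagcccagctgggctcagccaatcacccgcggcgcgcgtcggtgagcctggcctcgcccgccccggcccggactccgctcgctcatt

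On either strand, AGGTCA was held by the windows of 10 of these 39 genes (25.6%), against 18.1% of all 27025 genes with a window. The 10 were Abhd5, Acacb, Acadm, Acadvl, Acsl6, Cd36, Cpt1a, Echs1, Plin2 and Plin5, so they included genes that fell, the gene that rose and genes that did not pass. The longer AAGGTCA, which contains AGGTCA, was held by 4 of 39 (10.3%), against 5.38% of all genes. The repeat AGGNCANAGGNCA was held by none, against 0.451% of all genes. Of the 25 genes lower with both thresholds, 19 had a window and 4 of these held AGGTCA. These are matches of letters in short windows and not measured binding sites.

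Auxiliary enzymes and electron carriers of beta-oxidation all fell by adjusted p, against 21.7% of all tested genes, and without overlap, against 20.5%. Of these 6 genes 4 passed both thresholds, against 7.85%. Eci1, a mitochondrial isomerase for unsaturated fatty acids, measured 164, 148, 153 and 138 in controls and 58.7, 65.7, 69.8 and 65.4 in Dnm2 +/K562E mice. The mutant level was 43.0% of control. The Eci1 log2 fold change came to -1.22 (SE 0.07, adjusted p = 1.08e-06), which was the smallest p of the 48 genes. Eci2 and Decr1, a related isomerase and the dienoyl-CoA reductase, had log2 fold changes of -0.38 and -0.39, and both turned to about 0 (0.02 and 0.01) when scaled to myofibre markers. Eci2 was at -0.25 without control 1, and its call was lost with library size alone, with the replicate block by title numbers and without Dnm2 +/K562E mouse 1.

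Electron transfer flavoprotein takes the electrons of the acyl-CoA dehydrogenases and passes them to the respiratory chain through its dehydrogenase, Etfdh. Etfb, its beta subunit, measured 223, 238, 250 and 203 in controls and 97.9, 116, 114 and 116 in Dnm2 +/K562E mice. Etfa, its alpha subunit, measured 339, 345, 336 and 274 in controls and 190, 221, 228 and 223 in Dnm2 +/K562E mice. In both subunits control 4 was the lowest control and Dnm2 +/K562E mouse 1 the lowest of all mice. The log2 fold changes were -1.04 for Etfb (SE 0.08, adjusted p = 4.33e-06) and -0.58 for Etfa (SE 0.09, adjusted p = 3.15e-04). Etfa was at the fold threshold and lost that call with upper-quartile factors, with library size alone and when scaled to myofibre markers. The call was also lost with a filter of 10 counts in every mouse and without control 1, 2 or 3 or Dnm2 +/K562E mouse 1. Etfb shares 49.9% of its 31-base stretches with other transcripts, mostly Gm45233, which is not among the counted genes. Etfdh measured 334, 292, 290 and 249 in controls and 178, 176, 185 and 187 in Dnm2 +/K562E mice. All mutant mice were lower, with a log2 fold change of -0.68 (SE 0.08, adjusted p = 7.66e-05). Etfdh fell short of the fold threshold with library size alone and when scaled to myofibre markers.

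Acyl-CoA thioesterases release fatty acids from coenzyme A. Acot13 had the higher level per kb and measured 105, 115, 123 and 102 in controls and 74.5, 75.1, 75.0 and 87.1 in Dnm2 +/K562E mice, without overlap. Its log2 fold change was -0.52 (SE 0.08, adjusted p = 3.58e-04). Acot2, a mitochondrial form, measured 75.4, 25.0, 31.9 and 19.8 in controls and 13.3, 20.4, 23.1 and 14.7 in Dnm2 +/K562E mice. Control 1 was far above the rest, control 4 lay within the mutant range, and controls 2 and 3 lay above it. Acot2 thus had a log2 fold change of -1.09 (SE 0.37, adjusted p = 0.0334). Without control 1 it was -0.53 and no longer passed, and the call was also lost with library size alone or scaled to myofibre markers, with the replicate block by title numbers and without Dnm2 +/K562E mouse 1, 2 or 4. Of its 31-base stretches 29.9% are shared with the counted Acot1.

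**Figure D2:**
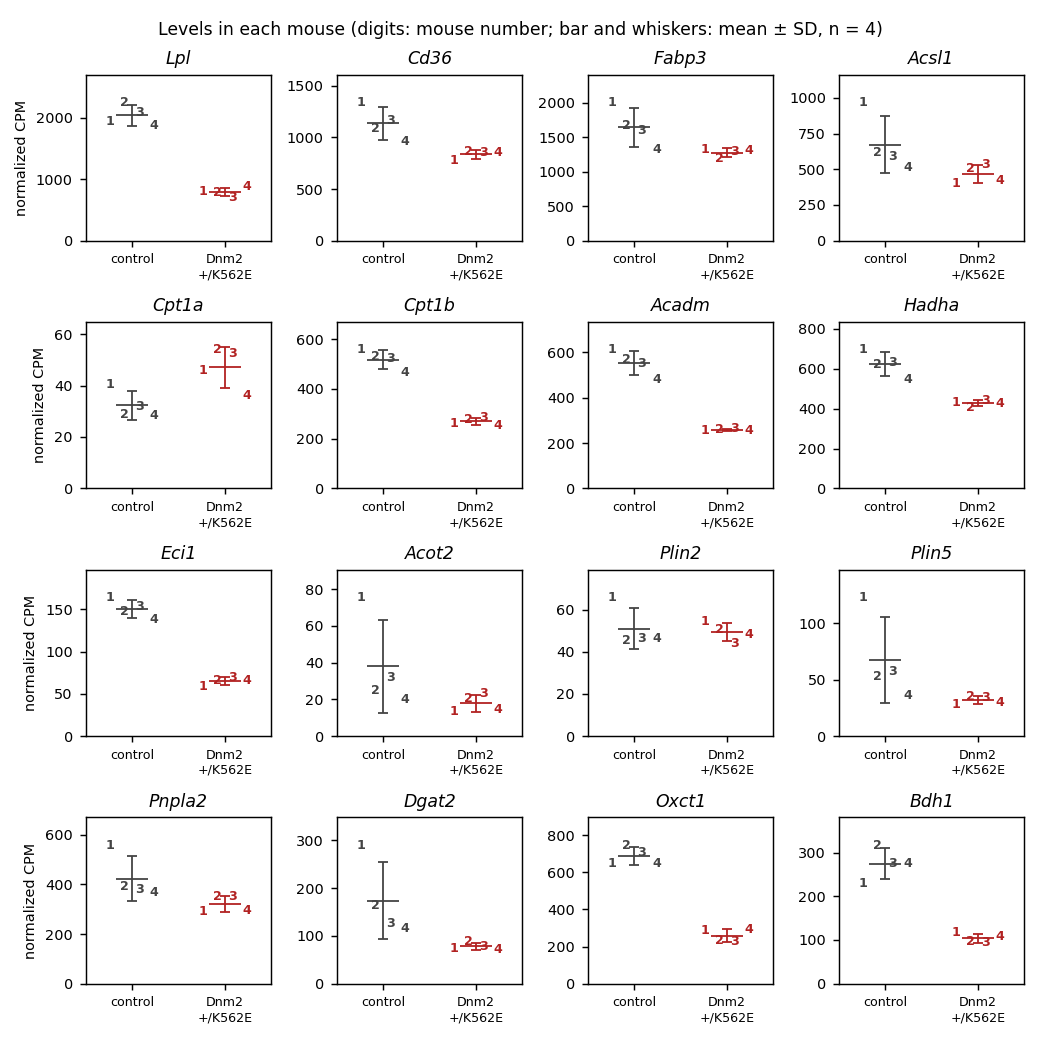
Normalized CPM (vertical axes, starting at 0) of 16 of the 48 genes in each mouse, with digits as mouse numbers, dashes as group means and whiskers as SD (n = 4). Lpl, Cpt1b, Acadm, Eci1, Oxct1 and Bdh1 are separated by wide gaps, while control 1 stands above the other controls in Acot2, Plin5 and Dgat2, and Plin2 overlaps.

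Droplet coat genes split by member. Plin3, Plin4 and Plin5 fell past both thresholds, with log2 fold changes near -1, and Plin2 did not pass. Perilipins coat the lipid droplet and control access of lipases to it, and Plin5 also tethers droplets to mitochondria in oxidative tissue. Plin4, Plin5 and Plin3 lie on the same strand of chromosome 17, with Plin4 and Plin5 separated by 1797 bases.

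Plin4 had the highest level per kb of the group and measured 633, 386, 381 and 382 in controls and 209, 256, 226 and 171 in Dnm2 +/K562E mice. Control 1 stood apart, yet all mutant mice were below all controls. On the log2 scale Plin4 differed by -1.05 (SE 0.18, adjusted p = 7.06e-04), and -0.84 without control 1. Plin5 measured 123, 52.9, 57.5 and 36.2 in controls and 28.1, 35, 34.5 and 29.5 in Dnm2 +/K562E mice. Control 4 was only just above the highest mutant mouse and control 1 far above all others. The fitted difference of Plin5 was -1.08 on the log2 scale (SE 0.30, adjusted p = 0.0132), and -0.63 without control 1. Plin3 measured 88.1, 81.6, 84.1 and 62.2 in controls and 38.7, 40.0, 37.4 and 30.3 in Dnm2 +/K562E mice. Its groups were well separated, with a log2 fold change of -1.11 (SE 0.12, adjusted p = 3.32e-05).

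Plin2, the perilipin found in most tissues, measured 65.9, 45.6, 46.6 and 46.2 in controls and 54.5, 50.7, 44.0 and 48.4 in Dnm2 +/K562E mice. The groups overlapped, with control 1 the highest of all and 3 of the 4 mutant mice above controls 2 to 4. Its log2 fold change of -0.05 (SE 0.12, adjusted p = 0.774) turned to 0.09 without control 1 and to 0.17 with library size alone. For fat cells, the 10 adipocyte markers summed to 790, 801, 491 and 973 in controls and 581, 729, 639 and 607 in Dnm2 +/K562E mice. With both thresholds 1 of 10 (Adig) was lower, near the 7.85% of all tested genes. Control 4 had the highest marker sum of the controls. Control 1, the highest in Plin4 and Plin5, was the highest control in Fabp4 of this list, at 578 against 387 to 456. The part of fat cells in the droplet genes was not tested.

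Lipolysis genes all fell by adjusted p, without overlap, and 2 of 4 passed both thresholds, against 21.7%, 20.5% and 7.85% of all tested genes. Pnpla2, the adipose triglyceride lipase that starts droplet breakdown, had the highest level per kb of these and measured 558, 392, 379 and 366 in controls and 290, 351, 350 and 294 in Dnm2 +/K562E mice. Control 1 was well above the other controls, and the others were close to the highest mutant mice. For Pnpla2 the fitted log2 fold change was -0.40 (SE 0.13, adjusted p = 0.0295), and -0.25 without control 1. The call of Pnpla2 was lost with library size alone or scaled to myofibre markers, with the replicate block by title numbers and without Dnm2 +/K562E mouse 1 or 4. Abhd5, its activator, had the smallest log2 fold change of any gene that fell, -0.21 (SE 0.06, adjusted p = 0.0181), which was 0.00 with library size alone and 0.20 when scaled to myofibre markers. The call of Abhd5 was also lost with the replicate block by title numbers, without control 2 or 3 and without Dnm2 +/K562E mouse 3.

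Lipe, the hormone-sensitive lipase, measured 84.8, 87.2, 64.7 and 99.2 in controls and 57.6, 58.4, 47.0 and 53.9 in Dnm2 +/K562E mice. Control 3 was the lowest control and control 4 the highest, as they were for the adipocyte marker sums. The Lipe log2 fold change came to -0.63 (SE 0.12, adjusted p = 0.00156). Lipe fell short of the fold threshold with library size alone, without control 4 and without Dnm2 +/K562E mouse 3. Scaled to myofibre markers, it lost its call by adjusted p as well. Reads of Lipe may be shared with the counted 4732471J01Rik, which overlaps 15.6% of its exon bases on the other strand. Mgll, the monoacylglycerol lipase that ends lipolysis, measured 192, 260, 240 and 225 in controls and 128, 129, 125 and 131 in Dnm2 +/K562E mice. The mutant mice were nearly equal and all below the lowest control, which was control 1. Mgll thus had a log2 fold change of -0.84 (SE 0.08, adjusted p = 2.37e-05).

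Triglyceride synthesis ends with a diacylglycerol acyltransferase, which mammals encode in the unrelated genes Dgat1 and Dgat2. Dgat2 measured 290, 164, 126 and 116 in controls and 74.5, 88.4, 77.9 and 72.5 in Dnm2 +/K562E mice. All controls were higher, but control 1 was far above the others. On the log2 scale Dgat2 differed by -1.15 (SE 0.24, adjusted p = 0.00300), and -0.80 without control 1. Dgat1 was low, with a control mean of 11.3 ± 1.86 and a mutant mean of 10.6 ± 0.784 (SD, n = 4 each) and a log2 fold change of -0.08 (adjusted p = 0.630).

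Ketone body use was the role with the lowest median, -1.40. All 3 genes fell past both thresholds, against 7.85% of all tested genes. Ketone bodies are taken up by muscle and cut to acetyl-CoA. Oxct1, the transferase that activates acetoacetate and defines tissues able to burn ketones, measured 646, 746, 706 and 646 in controls and 287, 232, 227 and 292 in Dnm2 +/K562E mice. The mutant level was 37.8% of control, the lowest percentage of the 48 genes. The fitted difference of Oxct1 was -1.40 on the log2 scale (SE 0.10, adjusted p = 2.13e-06). Bdh1, the hydroxybutyrate dehydrogenase of mitochondria, measured 230, 317, 275 and 274 in controls and 118, 96.9, 94.5 and 107 in Dnm2 +/K562E mice. Control 1, which was high for droplet genes, was the lowest control here, and the groups were still far apart. The log2 fold change of Bdh1 was -1.40 as well (SE 0.10, adjusted p = 2.88e-06). Acat1, the acetoacetyl-CoA thiolase, measured 473, 461, 453 and 420 in controls and 231, 243, 248 and 244 in Dnm2 +/K562E mice. Neither group varied much, and the log2 fold change was -0.90 (SE 0.06, adjusted p = 1.39e-06).

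By role, the median log2 fold changes were -0.44 for uptake, 0.07 for activation, -0.77 for the carnitine shuttle and -0.53 for malonyl-CoA. They were -0.68 for the oxidation spiral, -0.63 for auxiliary enzymes and electron transfer and -0.80 for thioesterases. Droplet coats had -1.07, lipolysis -0.52, triglyceride synthesis -0.62 and ketone body use -1.40. Uptake, droplet and oxidation genes thus had medians of the same sign, and each of these roles held genes on both sides of the thresholds. Differences between roles were not tested.

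Summed levels tell how much RNA each role held per mouse. Oxidation spiral genes summed to 4117, 3861, 3819 and 3350 normalized CPM in controls and 2198, 2227, 2334 and 2330 in Dnm2 +/K562E mice. Droplet coat genes summed to 910, 566, 569 and 527 in controls and 330, 381, 341 and 279 in Dnm2 +/K562E mice. For both sums every mutant mouse was below every control, with control 1 the highest. The activation genes, whose sum is mostly Acsl1, ran between 596 and 1046 in controls and between 482 and 607 in Dnm2 +/K562E mice and overlapped.

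**Figure D3:**
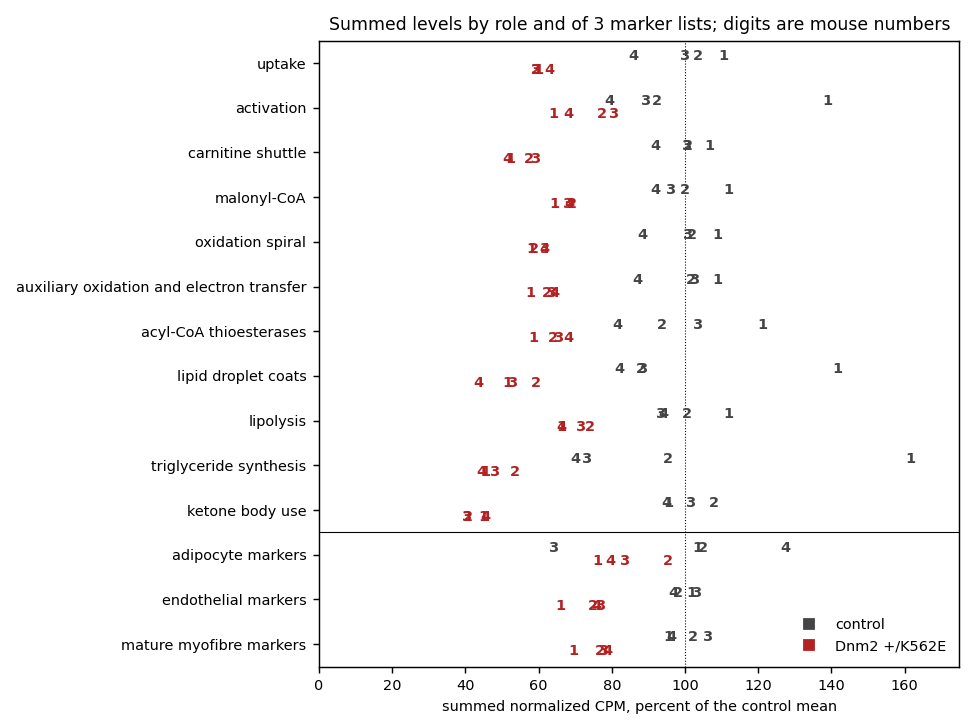
Summed normalized CPM of each role and of 3 marker lists in each mouse (horizontal axis, percent of the control mean, starting at 0), with digits as mouse numbers and the genotypes in different colours. Mutant mice lie below all controls in every role except activation, where they overlap, and control 1 lies far to the right for activation, droplet coats and triglyceride synthesis, but not for the adipocyte, endothelial or myofibre markers.

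Variation among the controls had a pattern shared by many of the genes. Control 1 was the highest control in 29 of the 48 and control 4 the lowest in 35. Control 4 also had the highest sum of fast fibre markers, though not of each marker. Myh4, the fastest myosin, was at 426, 372, 163 and 3134 normalized CPM in controls 1 to 4 and 34.0 to 50.9 in Dnm2 +/K562E mice. The parvalbumin gene Pvalb was at 342, 407, 469 and 946 in controls and 23.5 to 76.9 in Dnm2 +/K562E mice. Actn3 and Atp2a1 of this list were also highest in control 4. Myh1, Myh2, Tnni2 and Tnnc2 went the other way and were lowest there among the controls, with Myh2 at 9179 and the others at 9471 to 10596. These genes were named after their values were seen. Slow fibre markers summed to 19556 to 23042 in controls and 11340 to 14342 in Dnm2 +/K562E mice. Fast fibre markers summed to 42518 to 44965 and 25751 to 30722. By adjusted p 6 of 7 slow and 8 of 10 fast markers were lower, against 21.7% of all tested genes. Regenerating fibre markers summed to 74.0 to 87.8 in controls and 548 to 815 in Dnm2 +/K562E mice. With both thresholds 3 of 8 were higher, Myog, Myl4 and the embryonic myosin Myh3, against 12.9% of all tested genes. The satellite cell genes Pax7 and Myf5 were lower, 2 of 8 against 7.85%. The part of fibre type and of regenerating fibres in the differences was not tested. Without control 1, 23 of the 48 genes were lower with both thresholds, and without control 4, 28 were.

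Genes with a high level tended to have the larger differences. Per kb of transcript, the 24 genes with the higher control levels ran from 77.3 to 2002 normalized CPM, and all 24 fell by adjusted p, with a median log2 fold change of -0.90. The other 24 ran from 4.12 to 77.0, and 15 fell, with a median of -0.39. By adjusted p 21.7% of all tested genes fell. The rank correlation between the control level per kb and the log2 fold change was -0.46 across the 48 genes, which share the same 8 libraries and are not independent. The control level also enters the fold change. Whether other genes of like level show the same tendency was not tested. Fabp3, the gene with the highest level, went against this tendency.

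**Figure D4:**
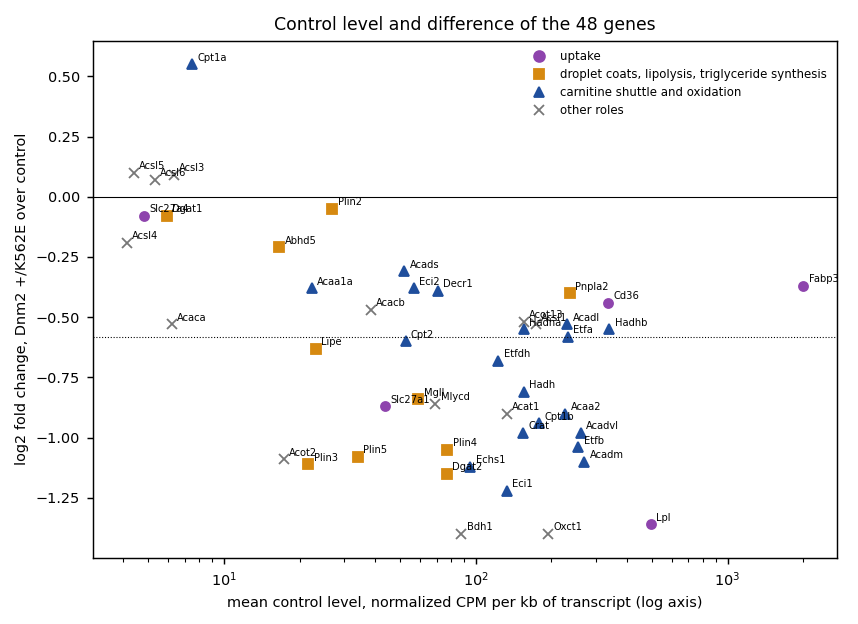
Log2 fold change (vertical axis, Dnm2 +/K562E over control) against the mean control level per kb of transcript (horizontal axis, log scale) of the 48 genes, with symbols for groups of roles. The genes near or above 0 have low levels, between 4.12 and 27.0, while Fabp3 at 2002 lies to the far right with a small difference.

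Ratios within a mouse do not depend on how libraries were scaled. Across 5 pairs of related genes, a pair was compared by its log2 ratio of counts with an exact two-sided permutation test, whose smallest possible p is 0.0286, and p-values were adjusted over the 5. Cpt1a to Cpt1b was -3.79, -4.21, -4.04 and -4.03 in controls and -2.49, -2.37, -2.45 and -2.81 in Dnm2 +/K562E mice. The ratio was higher in every mutant mouse, by 1.49 on average, a 2.80-fold shift (exact permutation p = 0.0286, adjusted p = 0.0714). Dgat1 to Dgat2 was -4.92, -3.72, -3.70 and -3.14 in controls and -2.90, -2.98, -2.77 and -2.86 in Dnm2 +/K562E mice. Again no mutant mouse overlapped with a control, and the difference was 0.99 (exact permutation p = 0.0286, adjusted p = 0.0714), or 0.64 without control 1.

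Plin2 to Plin5 ran between -0.90 and 0.35 in controls and between 0.35 and 0.95 in Dnm2 +/K562E mice, a difference of 0.91 (exact permutation p = 0.0571, adjusted p = 0.0952). Control 4 and Dnm2 +/K562E mouse 3 met at 0.35. Acaca to Acacb differed by -0.03 (exact permutation p = 0.971) and Acsl4 to Acsl1 by 0.31 (exact permutation p = 0.229), both with overlap. After adjustment none of the 5 ratios passed. Cpt1a to Cpt1b and Dgat1 to Dgat2 were at the smallest possible p. With only these pairs there, the adjustment could not give less than 0.0714, so it could not decide on them.

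**Figure D5:**
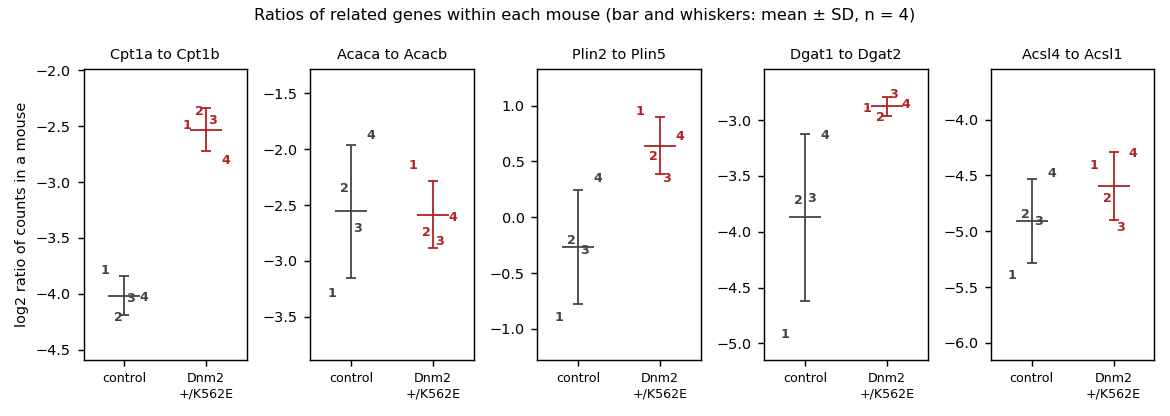
Log2 ratio of the counts of 2 related genes within each mouse (vertical axes, each spanning the same range), for 5 pairs, with digits as mouse numbers, dashes as group means and whiskers as SD (n = 4). The ratios of Cpt1a to Cpt1b and of Dgat1 to Dgat2 are higher in all 4 mutant mice than in all 4 controls, and the ratios of the other pairs overlap or meet.

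Other genes of the pathway were examined from lists of general knowledge, with 118 genes in rows and 109 tested. Of these 24 were lower and 12 higher with both thresholds, beside 7.85% lower and 12.9% higher over all tested genes, and the median log2 fold change was -0.29. With library size alone 14 were lower. Regulators of fatty acid genes included 8 lower genes and 1 higher gene of 16. Ppara, a nuclear receptor that switches on fatty acid oxidation, measured 33.3, 56.1, 44.7 and 30.0 in controls and 11.8, 10.4, 9.02 and 10.5 in Dnm2 +/K562E mice. Every mutant mouse was far below the lowest control, with a log2 fold change of -1.98. Esrra, the estrogen-related receptor alpha, and Lpin1, a phosphatidate phosphatase and coactivator, had log2 fold changes of -0.70 and -0.71. The catalytic subunits of AMP-activated kinase differed in direction, with Prkaa2 at -0.80 and Prkaa1 at 0.71. Ppargc1a, the coactivator PGC-1alpha, was singled out after its values were seen, and fell with a log2 fold change of -1.63.

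Other mitochondrial oxidation genes included 6 lower of 15 and none higher with both thresholds, beside 7.85% lower and 12.9% higher over all tested genes. Among them were Acadsb, an acyl-CoA dehydrogenase for branched chains, at -1.04, Ech1, a dienoyl-CoA isomerase, at -0.68, and Mcee, Mut and Pcca of the propionate route at -0.96, -0.82 and -0.82. Peroxisomal oxidation genes had 2 lower of 16 tested, Phyh, which starts the oxidation of phytanic acid, at -0.81, and Ehhadh, a bifunctional enzyme, at -1.34, with a median of -0.16. Control 1 was far above the other controls for Ehhadh, at 20.8 against 6.15 to 7.54, and without it the Ehhadh difference was -0.77 (adjusted p = 7.02e-04). The mitochondrial list had a median of -0.41, and the difference between the lists was not tested.

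Droplet formation genes Fitm1 and Fitm2 were lower, at -0.93 and -0.63. Cidea, a droplet fusion protein also in the brown adipocyte list, was higher, at 1.09, from a level of 4.87 in controls. Glycerolipid synthesis had 2 lower and 2 higher of 11, with Gpd1, the cytosolic glycerol phosphate dehydrogenase, at -1.13, Gpat3 at -0.69, and Lpin2 and Agpat4 at 0.70 each. Fatty acid synthesis had 1 lower and 2 higher of 13, with Mlxipl, the glucose-sensing factor ChREBP, at -1.16, and the desaturases Fads2 and Fads1 at 0.64 and 0.58. Fads2 fell short of the fold threshold without control 3, and Fads1 without any of 5 of the 8 mice. Among other thioesterases Acot9 was higher, at 0.84, and Acot11 and Acot1 were lower, at -0.78 and -2.28. Acot1 measured 13.9 in control 1 and 2.38 to 3.43 in the other controls, and its difference was -1.36 without control 1 (adjusted p = 0.00124). Among 11 other uptake genes tested 1 was lower, Gpihbp1, and 1 was higher, Angptl2, an angiopoietin-like protein, at 1.72. Over all tested genes 7.85% were lower and 12.9% higher with both thresholds. The counts of fatty acid synthesis and of other uptake genes were near these shares.

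Among genes that respond to fatty acid overload, none was lower with both thresholds, beside 7.85% of all tested genes. Ucp2, an uncoupling protein common in macrophages, rose from 41.4 ± 5.0 to 108 ± 15.2 (SD, n = 4 each). Macrophage markers were higher as well, as given above, and their part in the Ucp2 counts was not tested. In the carnitine supply list Cpt1c, the brain isoform, rose from 3.08 ± 0.720 to 5.38 ± 0.991 (SD, n = 4 each), and Bbox1 passed the test at very low levels, 0.133 in controls and 0.670 in Dnm2 +/K562E mice. Pdk4 and Ucp3, responsive to fatty acids and singled out after their values were seen, did not pass, with Pdk4 at 2194, 1108, 1785 and 1117 in controls and 1150, 2231, 2116 and 1531 in Dnm2 +/K562E mice. Control 1 was the highest control in Pdk4, as it was in most of the 48 genes.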

How the data were processed

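The deposited values are raw counts per gene and mouse, which the authors made with Trimmomatic 0.33, STAR 2.5.1b (genome build GRCm38, Ensembl gene models) and featureCounts. Reads on overlapping genes counted for every such gene, and reads with several alignments counted at the primary one. The methods name a poly A kit and the labels a stranded total RNA kit, and the use of strand in counting was not stated. Depth was 33407430 to 48832814 counts per mouse. Groups follow the genotype in the labels, and p-values measure the spread between 4 mice a group.

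Symbols, positions and transcript lengths (the APPRIS principal transcript) came from GENCODE M21, which matched 22570 of 22880 IDs. Genes kept by filterByExpr (minimum count 10, minimum total 15) were tested with edgeR 4.0.16 in R 4.3.3, with TMM factors and the quasi-likelihood F-test over all 14001 genes. Ratios within a mouse used exact permutation tests. Shared 31-base stretches and exon overlaps mark genes whose reads may belong elsewhere. The fit was tested on simulated counts.

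The 48 genes, the pathway and marker lists and the tests were chosen with earlier results of these data known. Values in every mouse are given for genes past both thresholds and for the gene of each role with the highest control level per kb. Those of Cpt1a, Acaca, Hadha, Plin2, Ppara, Pdk4, Myh4 and Pvalb were added after their values were seen. In each pathway list at most 5 genes past both thresholds were named, by smallest p, and other names are said to be chosen after their values were seen. Alternatives tried were DESeq2 1.42.0, the edgeR exact test, other scalings and filters, replicate blocks, leaving out each mouse and, added after seeing the data, scaling to myofibre markers. Tmlhe of the carnitine list had no row. A result of the overload list is not reported here.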

Additional observations from a re-analysis of the deposited data

Results flagged for a closer look

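In a group of 4 mice a single mouse can stand far from the others, and such gaps were looked for in 232 sets of 4 values. A gap counted when the distance of the highest or lowest mouse to its nearest neighbour, divided by the whole range of the group, was above Dixon's 95% critical value, which chance gives in about 1 in 20 groups. The sets come from the same 8 mice and include sums over genes that are also counted singly, so they are not independent. There were 17, of which 8 were at control 1. Control 1 was the highest control for Plin4 (633 normalized CPM, others 381 to 386), Plin2 (65.9, others 45.6 to 46.6), Pnpla2 (558, others 366 to 392), Ehhadh (20.8, others 6.15 to 7.54) and Acot1 (13.9, others 2.38 to 3.43). It was also the highest for the sums of droplet coats (910, others 527 to 569), of other thioesterases (110, others 90.6 to 93.0) and of glycerolipid synthesis (933, others 684 to 697).

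Control 4 was the lowest control for Etfa (274, others 336 to 345) and Mut (76.4, others 84.6 to 86.1), and the highest for the sum of macrophage markers (384, others 207 to 215). Dnm2 +/K562E mouse 1 was the lowest of its group for Cd36 (772, others 852 to 863) and Etfb (97.9, others 114 to 116). Dnm2 +/K562E mouse 4 was the highest for Decr1 (167, others 156 to 157) and Acot13 (87.1, others 74.5 to 75.1). Dnm2 +/K562E mouse 2 was the highest for Acot1 (1.63, others 0.951 to 1.05) and the lowest for the sum of cardiomyocyte markers (79.7, others 89.1 to 89.3).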

How the results depend on the processing

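Of the 40 genes that passed by adjusted p, 32 kept their direction and their call under all 18 other settings listed above, and 21 did so when the scaling to myofibre markers was included. The number of the 48 that were lower with both thresholds was 20 with library size alone, 23 with upper-quartile factors, 24 with at least 10 counts in every mouse, 25 with the exact test of edgeR, DESeq2, median-ratio factors, mitochondrial genes left out or no filter, and 23 to 28 when a mouse was left out. With myofibre scaling it was 10, and 20 were lower by adjusted p alone. The call was then lost by Slc27a1, Cpt1b, Cpt2, Crat, Mlycd, Acadvl, Hadh, Acaa2, Etfa, Etfdh, Acot2, Plin5, Lipe, Mgll and Acat1. Of these, Slc27a1, Cpt2, Acot2, Plin5 and Lipe also lost it by adjusted p alone. One gene was higher with both thresholds, Cpt1a, with library size alone, with myofibre scaling, without control 1 and without Dnm2 +/K562E mouse 4. By adjusted p alone 3 were higher with library size alone and 5 with myofibre scaling. Among other pathway genes 14 were lower with library size alone, and 8 were lower and 21 higher with myofibre scaling. Both scalings move the median of all tested genes, to 0.22 and 0.41, which their construction implies. The median of the 48 genes minus that of all tested genes was -0.60 under both and in the main fit. Across all settings it ran from -0.65 to -0.58.

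The median of the 48 genes was -0.38 with library size alone and -0.19 with myofibre scaling. Under those scalings the role medians were -0.23 and -0.05 for uptake, 0.28 and 0.47 for activation, -0.56 and -0.37 for the carnitine shuttle, -0.32 and -0.12 for malonyl-CoA, -0.47 and -0.28 for the oxidation spiral, -0.42 and -0.23 for auxiliary enzymes, -0.30 and -0.12 for lipolysis, -0.40 and -0.22 for triglyceride synthesis and -1.18 and -0.98 for ketone body use. Myofibre scaling gave -0.41 for thioesterases and -0.68 for droplet coats. Leaving out a mouse moved the medians to between -0.65 and -0.56 for all 48, -0.01 and 0.09 for activation (negative without Dnm2 +/K562E mouse 1), -0.69 and -0.47 for malonyl-CoA, -1.17 and -0.73 for droplet coats (-0.73 without control 1) and -0.60 and -0.44 for lipolysis.

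Directions of single genes that turned with library size alone were Slc27a4 (0.13), Acsl4 (0.02), Plin2 (0.17), Abhd5 (0.00) and Dgat1 (0.13). With myofibre scaling Fabp3 (0.04), Slc27a4 (0.33), Acsl4 (0.21), Acads (0.09), Acaa1a (0.02), Eci2 (0.02), Decr1 (0.01), Plin2 (0.35), Abhd5 (0.20) and Dgat1 (0.32) turned. Plin2 turned to 0.09 without control 1 and 0.00 without Dnm2 +/K562E mouse 3, and ran from -0.10 to 0.09 when a mouse was left out, and Acsl3 turned to -0.01, the lowest of a range up to 0.20, without Dnm2 +/K562E mouse 1. Apart from scaling the cause was not tested.

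Mouse numbers did not pair the mice, with a mean correlation of deviations of -0.11 by the titles (-0.21 to 0.01) and -0.03 by the descriptions (-0.17 to 0.18). With the replicate block 24 genes were lower by the title numbers, which loses Acot2, and 25 by the description numbers. By adjusted p alone the title numbers gave 34, losing Acsl1, Eci2, Acot2, Pnpla2 and Abhd5, and the description numbers 39. Within same-numbered mice the ratio differences were 1.49 for Cpt1a to Cpt1b and 0.99 for Dgat1 to Dgat2, in a paired test that cannot go below an exact p of 0.125. When a mouse was left out, the ratio difference was 1.42 to 1.58 for Cpt1a to Cpt1b, 0.64 to 1.23 for Dgat1 to Dgat2 (exact permutation p = 0.0571 without any of the mutant mice), 0.69 to 1.11 for Plin2 to Plin5 (exact permutation p = 0.0286 without control 4) and -0.27 to 0.20 for Acaca to Acacb, which turned positive without control 2 or 4 or Dnm2 +/K562E mouse 2 or 3 (0.04, 0.20, 0.03 and 0.05). Bbox1, at group means of 0.133 and 0.670 normalized CPM, rested on few counts.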
